A study of Mus musculus with 12 samples.

Results

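Collagen genes were followed through 12 RNA sequencing libraries of cultured mouse adipocytes. Members were all genes whose symbol is Col, a number, the letter a and a number, with at least 1 FPKM (fragments scaled to the length of the transcript and the size of the library) in 2 libraries or more. Of 44 genes with such a symbol among 24888 entries, 28 met the level and 16 did not. The members comprised 10 of 11 fibrillar collagen genes, 3 of 6 basement membrane genes, 3 of 3 network genes, 3 of 9 FACIT genes (fibril-associated collagens with interrupted triple helices), 5 of 6 beaded filament genes, 2 of 2 multiplexins, 1 of 4 transmembrane collagens and 1 of 2 other collagens. The single anchoring fibril gene did not meet the level. Judged by the second highest library, Col10a1 (1.05 FPKM) and Col6a5 (1.13 FPKM) lay just inside the threshold, whereas Col2a1 (0.789 FPKM) and Col20a1 (0.673 FPKM) lay just outside it.

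There were 6 groups of 2 libraries. ATF7KO and WT preadipocytes from inguinal white fat of C57BL/6 mice were differentiated with rosiglitazone, an agonist of the nuclear receptor PPARγ, and labelled beige, or without it and labelled white. The mesenchymal line C3H10t1/2 was differentiated with rosiglitazone and either overexpressed ATF7 or served as Control. ATF7 is a transcription factor of the ATF and CREB family. No label says whether replicates came from separate animals or cultures, so the p-values measure only the spread between these libraries, which may be technical. The labels give neither the deleted part of Atf7 nor the age of the animals.

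Atf7 had 7.26 and 7.94 FPKM in ATF7KO beige libraries against 7.80 and 7.83 FPKM in WT beige libraries. In white cultures it had 6.88 and 7.73 FPKM in ATF7KO libraries against 9.10 and 7.10 FPKM in WT libraries. Both ATF7KO groups thus overlapped their WT groups, and a value for the whole gene checks nothing where only a part is deleted, so these libraries are called KO-labelled. Overexpressing C3H10t1/2 libraries had 41.2 and 39.1 FPKM of Atf7 against 8.52 and 9.09 FPKM in Control libraries. Ucp1, the uncoupling protein of thermogenic adipocytes, had 51.6 and 24.5 FPKM in KO-labelled beige and 17.2 to 19.1 FPKM in WT beige libraries, and was listed at 0 in all 4 white libraries. Between 9844 and 10877 genes a library reached 1 FPKM, and small RNA genes took 20.1% to 27.5% of all FPKM. Read depth is unknown, so no counting interval is given.

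Collagens are built from chains with long Gly-X-Y repeats that wind into a triple helix. Fibrillar types I, III and V form the cables of connective tissue, type IV forms the sheet of the basement membrane that surrounds each adipocyte, and type VI forms beaded microfilaments that are abundant around fat cells. FACIT collagens sit on the surface of fibrils, type VIII builds short-chain networks, and the multiplexins XV and XVIII lie in basement membrane zones. Preadipocytes make a fibrillar matrix that is replaced by a matrix rich in types IV and VI as adipocytes mature.

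The sequences before 4 starts are shown because these genes carry contrasting results: Col3a1 is a major fibrillar gene that fell in WT beige against WT white cultures, Col15a1 did not pass that test, Col24a1 was low in every beige library, and Col27a1 was the member called with ATF7 overexpression. They are RefSeq sequence of GRCm38.p6, on the strand of the gene and 5′ to 3′. Those of Col3a1, Col27a1 and Col15a1 are the 250 bases before the annotated start, and that of Col24a1 runs from 200 bases before its start through its first 8 bases. Capitals mark matches to TATAAA in Col3a1, to TGACGTCA in Col24a1 and to GGGCGG in Col27a1.
Col3a1, chr1:45311288-45311537, plus strand: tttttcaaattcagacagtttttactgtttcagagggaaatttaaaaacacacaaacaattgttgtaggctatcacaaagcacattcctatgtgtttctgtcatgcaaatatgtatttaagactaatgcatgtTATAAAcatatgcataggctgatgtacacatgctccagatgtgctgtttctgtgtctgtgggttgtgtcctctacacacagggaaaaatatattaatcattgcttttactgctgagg
Col24a1, chr3:145292272-145292479, plus strand: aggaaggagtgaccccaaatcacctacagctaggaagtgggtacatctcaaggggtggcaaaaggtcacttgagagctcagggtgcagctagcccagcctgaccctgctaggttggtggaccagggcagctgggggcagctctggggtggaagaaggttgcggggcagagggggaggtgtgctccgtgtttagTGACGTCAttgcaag
Col27a1, chr4:63215162-63215411, plus strand: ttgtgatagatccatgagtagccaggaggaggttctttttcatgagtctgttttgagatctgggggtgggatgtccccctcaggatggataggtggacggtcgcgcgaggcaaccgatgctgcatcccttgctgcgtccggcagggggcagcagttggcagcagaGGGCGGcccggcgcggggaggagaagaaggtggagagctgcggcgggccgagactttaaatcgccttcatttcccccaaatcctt
Col15a1, chr4:47207762-47208011, plus strand: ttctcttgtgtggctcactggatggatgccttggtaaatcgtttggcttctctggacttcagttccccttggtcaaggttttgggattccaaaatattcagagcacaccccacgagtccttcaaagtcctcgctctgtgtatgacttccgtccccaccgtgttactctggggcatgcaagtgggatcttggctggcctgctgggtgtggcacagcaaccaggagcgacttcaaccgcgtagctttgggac

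Promoter windows were matched for 24 of the 28 members, with 26 windows in all, and each window held 250 bases before and 50 after the start. Col1a1, Col5a2, Col12a1 and Col14a1 were not matched. The TATA motif TATAAA, the CAAT box CCAAT, the GC box GGGCGG and the cyclic AMP response element TGACGTCA were searched on both strands, and none of these contains another. GGGCGG stood in 69.2% of the members' windows, against 35.7% of all 32851 windows of that length. CCAAT stood in 30.8% of the members' windows against 37.4% of all, and TATAAA in 11.5% against 13.6%. Among the members TGACGTCA stood only in the window of Col24a1, from 7 bases before its start to the first base of the gene, and in 1.79% of all windows. In Col3a1 the TATAAA match lay 117 to 112 bases before the start. Such matches describe letters and not bound sites.

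Members spanned a wide range of levels. Col1a1 and Col3a1 held the first and second ranks among collagens in the 4 white libraries, and Col1a1 held the first in the 4 primary beige libraries. Col6a1 ranked first in the 4 C3H10t1/2 libraries. At least 1 FPKM was found in every library for 16 members, among them all 3 basement membrane members, Col6a1, Col6a2, Col6a3 and Col15a1. The heat map of all members shows these levels.

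**Figure D1:**
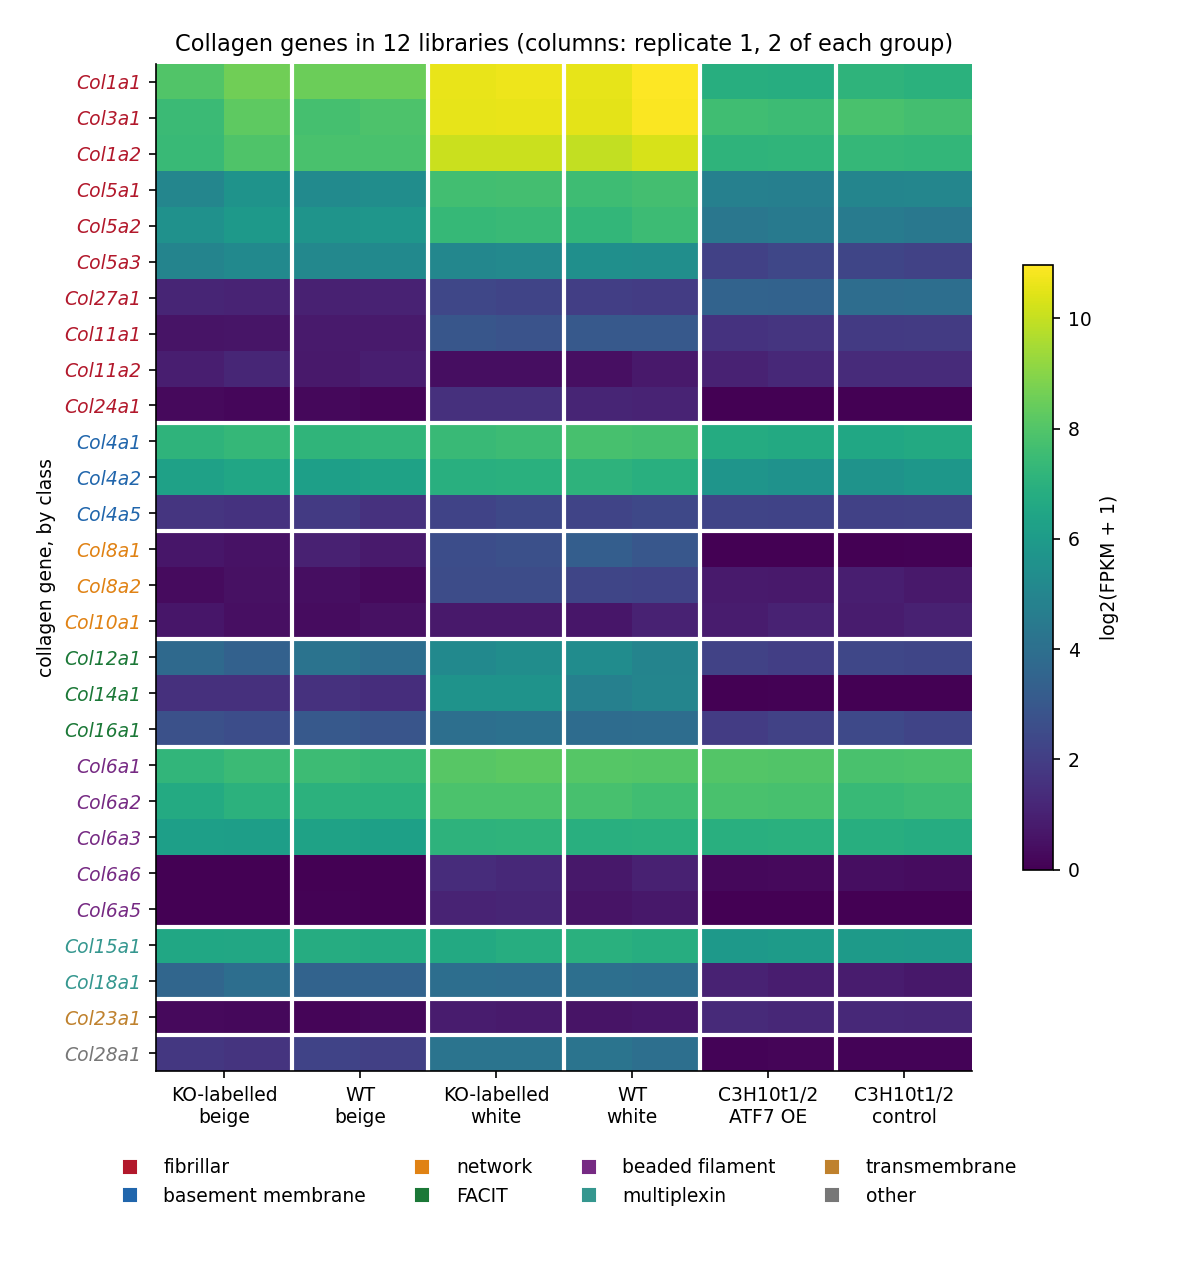
Levels of the 28 collagen members (rows, coloured by class) in 12 libraries (columns, replicate 1 and 2 of each group) as log2(FPKM + 1). Col1a1, Col3a1 and Col1a2 are brightest in the 4 white libraries, whereas Col15a1 and Col5a3 keep a similar shade in beige and white primary cultures.

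Summed over members, collagens came to 1377 and 1837 FPKM in KO-labelled beige, 1680 and 1691 FPKM in WT beige, 5688 and 5946 FPKM in KO-labelled white and 5584 and 6758 FPKM in WT white libraries. They took 0.564% to 0.699% of all FPKM in primary beige and 2.48% to 2.78% in white libraries. The C3H10t1/2 libraries held 1351 and 1323 FPKM with ATF7 overexpressed and 1326 and 1310 FPKM in Control. Fibrillar genes gave 51.6% to 58.8% of collagen FPKM in the 4 primary beige libraries and 78.3% to 83.2% in the 4 white libraries. Basement membrane genes gave 13.04% to 15.9% in primary beige and 4.86% to 6.40% in white libraries. Beaded filament genes gave 20.6% to 23.3% in primary beige and 8.52% to 11.3% in white libraries. Fibrillar shares were thus lower and basement membrane and beaded filament shares higher in every beige than in every white library. The summed FPKM of these last classes was nonetheless lower in primary beige. Basement membrane genes summed to 219 to 249 FPKM in primary beige and 297 to 357 FPKM in white libraries. Beaded filament genes summed to 321 to 389 FPKM in primary beige and 576 to 664 FPKM in white libraries. FACIT genes gave 0.894% to 1.57% in primary beige and 1.11% to 1.76% in white libraries, and network genes at most 0.236% in any of the 12 libraries.

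**Figure D2:**
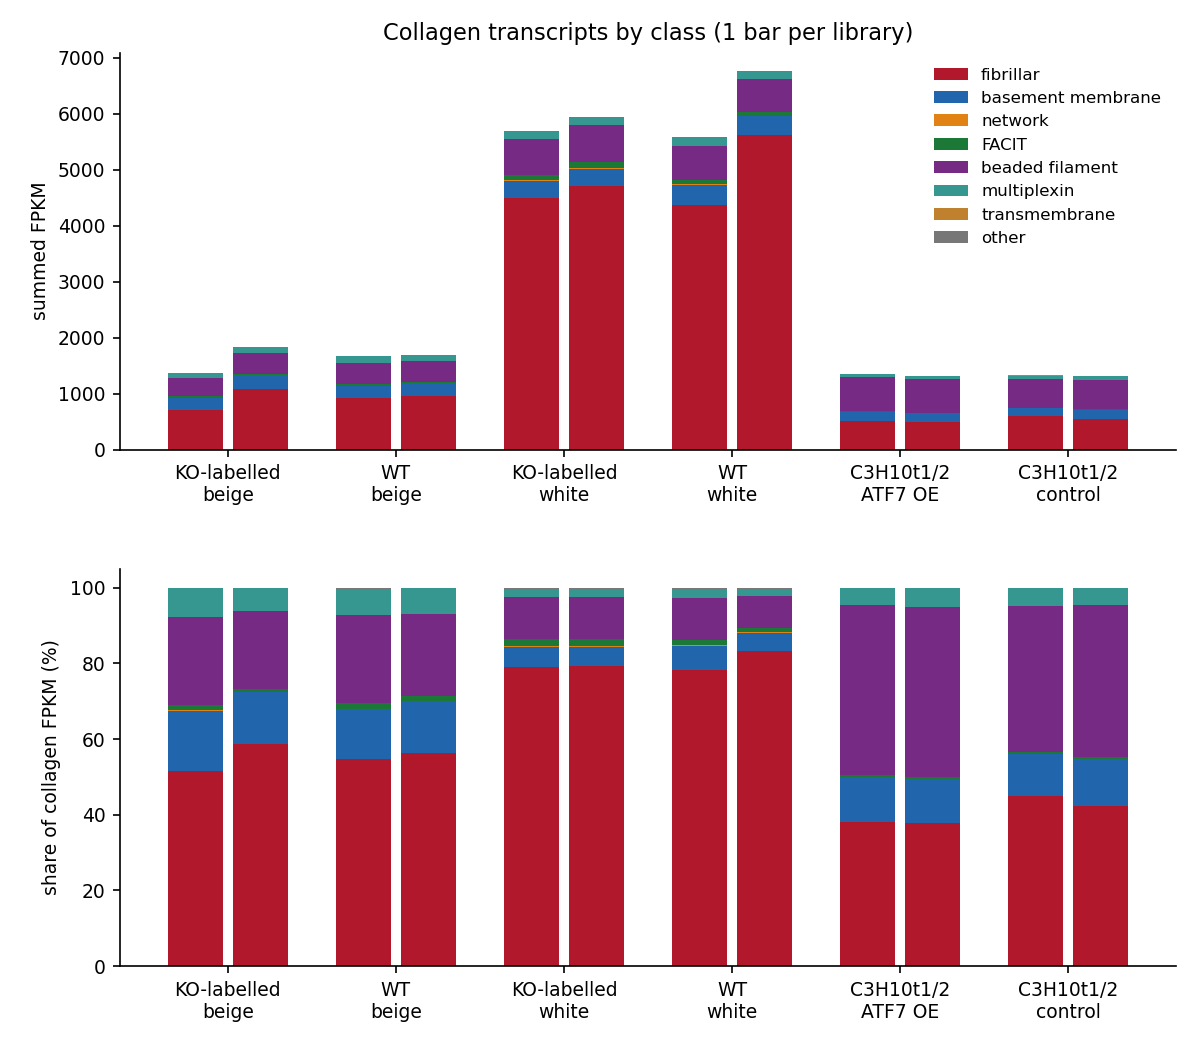
Summed FPKM of the members by class (upper panel) and the share of each class in the collagen FPKM of a library in percent (lower panel), 1 bar per library. Fibrillar genes fill 78.3% to 83.2% of the white bars, 51.6% to 58.8% of the primary beige bars and 37.9% to 45.1% of the C3H10t1/2 bars.

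The comparison of beige with white cultures asks how collagen transcripts differ between differentiation with and without rosiglitazone. Of the 28 members, 25 had at least 1 FPKM in at least 2 of the 8 primary libraries and were tested, and Col10a1, Col11a2 and Col23a1 were not. In KO-labelled cultures 21 of 25 were lower in beige (limma on log2(FPKM + 1), Benjamini-Hochberg adjusted p under 0.05 over 11294 genes) and 0 higher, where 34.3% of all genes tested were called lower and 26.6% higher. In WT cultures 23 of 25 were lower and 0 higher, where 32.1% of all genes were called lower and 21.6% higher. Col6a5, Col6a6, Col11a1, Col24a1 and Col8a2 stayed under 1 FPKM in all 4 beige libraries and so were tested only through the white ones. Among the other 20 tested members, 16 were lower in KO-labelled and 18 in WT beige cultures, against 28.9% and 27.3% of all genes that reached 1 FPKM in a beige library. None of the 21 or 23 calls was lost in any alternative setting in which the member was still tested, each library left out in turn included. Col6a5 and Col6a6 dropped below the level needed for testing in some of these settings. Some members not called as reported were called lower when libraries were quantile normalized or small RNA genes were left out. These were Col5a3 and Col15a1 in KO-labelled and in WT cultures, and Col4a1 in KO-labelled cultures. With small RNA genes left out, Col18a1 in KO-labelled cultures was added. The fold changes below are beige over white on the log2(FPKM + 1) scale, which understates those of low genes, with their standard errors (SE).

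Fibrillar genes had a median log2 fold change of -2.25 over the 9 tested in KO-labelled and -2.27 in WT cultures, against -0.06 and -0.10 over all genes. The 9 include Col11a1 and Col24a1, which were tested only through the white libraries, so their direction was fixed in advance. Col1a1, the α1 chain of type I collagen, had 251 and 382 FPKM in KO-labelled beige against 1532 and 1628 FPKM in KO-labelled white libraries. It had 366 and 358 FPKM in WT beige against 1520 and 1998 FPKM in WT white libraries. The highest beige library thus lay well below the lowest white one, and the change was -2.34 (SE 0.21) in KO-labelled and -2.27 (SE 0.21) in WT cultures. Col3a1, the homotrimer that coassembles with type I, had 178 and 302 FPKM in KO-labelled beige against 1487 and 1570 FPKM in KO-labelled white libraries. In WT cultures the beige libraries had 210 and 236 FPKM against 1443 and 1927 FPKM in the white ones, a change of -2.90 (SE 0.24, adjusted p = 1.65e-05). Replicates of KO-labelled beige stood apart from each other for Col3a1 by more than those of WT beige, yet both lay far under every white library. Col5a1, a type V chain that sits inside type I fibrils and limits their width, changed by -2.31 in KO-labelled and -2.34 in WT cultures (SE 0.18 each). Its partner Col5a2 changed by -1.63 and -1.67 (SE 0.14 each).

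The third type V chain differed from its partners. Col5a3 had 29.6 and 35.4 FPKM in KO-labelled beige against 33.0 and 34.8 FPKM in KO-labelled white libraries, which overlap. In WT cultures the beige libraries had 34.0 and 35.7 FPKM against 43.6 and 41.4 FPKM in the white ones, which do not overlap. Neither difference passed the threshold by limma (log2 fold change -0.06, adjusted p = 0.631 in KO-labelled, and -0.28, adjusted p = 0.0590 in WT cultures). Both were called lower when libraries were quantile normalized or small RNA genes were left out. The difference in WT cultures was also called with all 12 libraries in 1 fit and with only the 2 groups compared. The minor fibrillar gene Col11a1, of type XI collagen, had 0.514 to 0.721 FPKM in beige and 5.99 to 7.32 FPKM in white libraries. Col27a1, a fibrillar gene known from cartilage, changed by -1.15 in KO-labelled and -0.95 in WT cultures (SE 0.10 each). Col24a1 had 0.201 and 0.153 FPKM in KO-labelled beige against 1.89 and 1.88 FPKM in KO-labelled white libraries, and 0.167 and 0.0975 FPKM in WT beige against 1.18 and 1.14 FPKM in WT white libraries. Col11a2, the α2 chain of type XI collagen, was not tested and was the only member with every primary beige value (0.691 to 1.26 FPKM) above every white value (0.335 to 0.658 FPKM).

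The 3 FACIT genes all fell in KO-labelled and in WT beige cultures. Col14a1, whose product decorates type I fibrils, had 1.89 and 1.83 FPKM in KO-labelled beige against 48.4 and 49.0 FPKM in KO-labelled white libraries. The WT beige libraries had 1.93 and 1.69 FPKM against 26.6 and 31.0 FPKM in the WT white ones. Its changes of -4.12 and -3.40 (SE 0.10 each) were the largest of any member on this scale in KO-labelled and in WT cultures. Col12a1, a FACIT collagen of tendons and fascia, changed by -1.70 and -1.06 (SE 0.16 each), and Col16a1 by -1.39 and -0.95 (SE 0.10 each).

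The network genes Col8a1 and Col8a2, which encode the chains of type VIII collagen, changed by -2.01 and -2.14 in KO-labelled and by -2.20 and -1.92 in WT cultures. Both are low in beige, and the ratio of their mean FPKM was 0.102 and 0.0677 in KO-labelled and 0.115 and 0.0690 in WT cultures, below that of Col3a1 (0.157 and 0.132), so that the order of these classes depends on the added 1. Col28a1, a von Willebrand factor A domain collagen known from peripheral nerve, had 2.45 and 2.10 FPKM in KO-labelled beige against 17.6 and 17.5 FPKM in KO-labelled white libraries. It had 3.62 and 3.23 FPKM in WT beige against 17.4 and 15.2 FPKM in WT white libraries. For each of these genes every beige value lay below every white value.

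Basement membrane genes and the abundant type VI genes changed less. Col4a1 and Col4a2, whose products form the common type IV trimer and whose genes stand head to head on chromosome 8, with 2 bases between them, moved unequally. Col4a1 had 140 and 158 FPKM in KO-labelled beige against 173 and 181 FPKM in KO-labelled white libraries, a difference that missed the threshold (-0.25, adjusted p = 0.0723). The WT beige libraries had 144 and 149 FPKM against 218 and 205 FPKM in the WT white ones, and the difference was called (-0.52, SE 0.11, adjusted p = 0.00313). Col4a2 changed by -0.56 in KO-labelled and -0.73 in WT cultures (SE 0.12 each), and Col4a5 by -0.63 and -0.60 (SE 0.13 each). The type VI genes Col6a1, Col6a2 and Col6a3 changed by -0.81, -0.996 and -0.93 in KO-labelled and by -0.60, -0.68 and -0.66 in WT cultures. The low type VI genes Col6a5 and Col6a6 had at most 0.0398 FPKM in beige and 0.502 to 1.64 FPKM in white libraries. Both reached the level needed for testing only through the KO-labelled white libraries, so a drop from these to beige was fixed in advance. Its size is therefore not set against that of their abundant relatives. The added 1 compresses the drop (log2 fold changes of -1.07 and -1.32 in KO-labelled and -0.62 and -0.83 in WT cultures).

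The multiplexins moved little in the FPKM as deposited. Col15a1 had 90.9 and 95.6 FPKM in KO-labelled beige against 101 and 114 FPKM in KO-labelled white libraries. The WT beige libraries had 109 and 102 FPKM against 125 and 113 FPKM in the WT white ones. Beige lay lower in each pair of groups, but neither difference was called by limma (adjusted p = 0.140 and 0.214). Both were called lower when libraries were quantile normalized or small RNA genes were left out. Over all settings the log2 fold change ran from -0.64 to -0.09 in KO-labelled and from -0.56 to -0.06 in WT cultures. Col18a1, which carries the endostatin domain, was lower in WT beige (10.3 and 10.4 FPKM) than in WT white libraries (15.3 and 14.2 FPKM; -0.47, SE 0.12, adjusted p = 0.00879). The KO-labelled beige libraries had 11.3 and 14.5 FPKM against 14.5 and 14.2 FPKM in the KO-labelled white ones, which overlap, and the difference was not called.

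**Figure D3:**
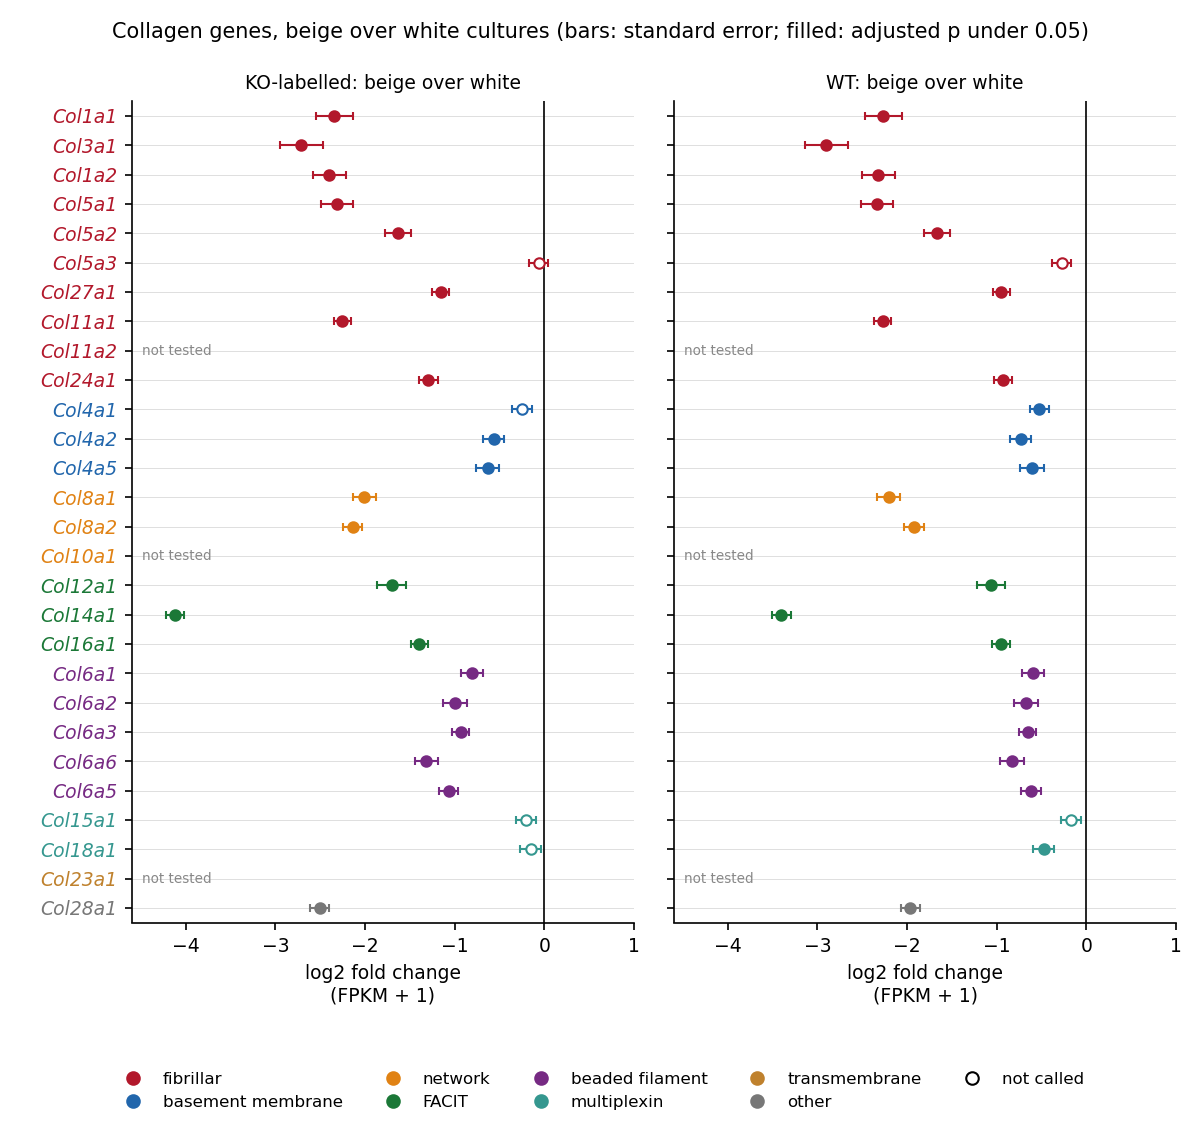
Beige over white log2 fold change of FPKM + 1 with its standard error for each collagen gene, in KO-labelled (left) and WT cultures (right), with filled points for adjusted p under 0.05. Fibrillar, FACIT and network genes reach the left side, down to -4.12 for Col14a1, and Col5a3 and Col15a1 stay near 0.

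Ratios between chains of a trimer changed unevenly. Col1a1 over Col1a2 was 1.47 to 1.65 in primary beige and 1.42 to 1.59 in white libraries, ranges that overlap. Col5a1 over Col5a2 was 0.690 to 0.814 in primary beige and 1.12 to 1.24 in white libraries. Col4a1 over Col4a2 was 1.77 to 2.01 in primary beige and 1.43 to 1.73 in white libraries. The type VI ranges overlapped. Col6a1 over Col6a2 was 1.33 to 1.46 in primary beige and 1.21 to 1.35 in white libraries. Col6a3 over Col6a1 was 0.398 to 0.481 in primary beige and 0.444 to 0.483 in white libraries. The type V ratio was thus lower and the type IV ratio higher in every beige than in every white library, as a description of these 8 libraries.

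Markers of stromal progenitors, macrophages and adipocytes moved with the same contrast. Beside them, 34.3% of all genes were called lower and 26.6% higher in KO-labelled beige, and 32.1% and 21.6% in WT beige. The summed FPKM of 8 stromal progenitor markers was 101 to 112 in KO-labelled beige and 93.2 to 102 in WT beige, against 345 to 394 in KO-labelled white and 270 to 294 in WT white libraries, and all 7 tested were lower in beige. The 8 macrophage markers summed to 16.5 to 21.7 FPKM in KO-labelled beige and 19.1 to 20.8 in WT beige, against 564 to 591 in KO-labelled white and 413 to 434 in WT white libraries, and all 8 were lower in beige. The 6 adipocyte markers summed to 9965 to 11011 FPKM in KO-labelled beige and 10062 to 10677 in WT beige, against 2550 to 2613 in KO-labelled white and 3258 to 3826 in WT white libraries. Most of each sum was Fabp4, with 8602 to 9585 FPKM in primary beige and 1940 to 3055 FPKM in white libraries. Adipoq had 424 to 518 FPKM in primary beige and 274 to 353 FPKM in white libraries. Of the 6, all were called higher in KO-labelled beige and 5 in WT beige. Of the 8 stromal progenitor markers, 4 stayed under 1 FPKM in both KO-labelled beige libraries and 2 in both WT beige libraries. Of the 8 macrophage markers, 2 and 3 did so. Some of the lower calls may thus come from markers tested only through the white libraries, which fixes their direction in advance. The part of the stromal, macrophage and adipocyte markers in the collagen differences was not tested. In such bulk libraries, fewer cells of a type and less RNA per cell cannot be told apart. The 4 tested markers of pericytes and smooth muscle were split, with 2 higher and 1 lower in KO-labelled and 2 higher and 2 lower in WT beige. The 1 tested Schwann cell marker was not called. The 1 tested endothelial marker and the 2 tested markers of cartilage and bone were lower in KO-labelled and in WT beige. All 6 endothelial markers stayed under 1 FPKM in the 4 beige libraries, so this one was tested only through the white ones. That fixed its direction in advance. In KO-labelled and in WT beige, 6 of 7 markers of cartilage and bone were under 1 FPKM in both libraries, which limits their calls likewise. Epithelial and mesothelial markers summed to at most 0.104 FPKM in any library.

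Genes that make and handle collagen did not all follow it. Their counts stand beside the 34.3% of all genes called lower and 26.6% called higher in KO-labelled beige, and the 32.1% and 21.6% in WT beige. Of 13 tested genes for hydroxylation and glycosylation, 2 were higher and 7 lower in KO-labelled beige, and 3 were higher and 7 lower in WT beige. P4ha1, a catalytic subunit of prolyl 4-hydroxylase, was higher in WT beige (57.0 and 54.3 FPKM) than in WT white libraries (27.7 and 22.3 FPKM; 1.13, SE 0.16). Plod2, the lysyl hydroxylase of fibrillar crosslinks, was lower by the same contrast (-1.13, SE 0.10). Serpinh1, which encodes the collagen chaperone HSP47, had 161 and 166 FPKM in WT beige against 373 and 375 FPKM in WT white libraries (-1.19, SE 0.14). Of 14 genes for folding and export, 9 were lower and 1 higher in WT beige.

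All 3 tested genes of procollagen cleavage were lower in KO-labelled and in WT beige, among them Bmp1, the C-proteinase (-2.46 and -2.08, SE 0.11 each). Of 7 crosslinking genes, 5 were lower and 1 higher in WT beige. Lox, the lysyl oxidase, had 129 and 117 FPKM in WT beige against 338 and 286 FPKM in WT white libraries (-1.33, SE 0.12), whereas Tgm2, transglutaminase 2, was higher (1.47, SE 0.13). All 13 tested fibril-associated proteins were lower in KO-labelled and in WT beige, such as the small leucine-rich proteoglycans Dcn (-2.84, SE 0.11) and Lum (-3.67, SE 0.12) in WT cultures. Among 11 partners of the basement membrane, 3 were higher and 5 lower in WT beige, not far from the shares of all genes, with Lama4, a laminin chain of adipocyte basement membranes, higher (1.13, SE 0.10) and Nid2, nidogen 2, lower (-3.91, SE 0.11). For turnover, 9 of 13 tested genes were lower and 2 higher in WT beige, and the 4 tested metalloproteinase inhibitors were all lower. Of 10 receptors, 7 were lower and 1, the fatty acid and collagen receptor Cd36, was higher (1.55, SE 0.12). Of 14 TGF-β genes, 8 were lower and 2 higher.

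The next question was whether collagen transcripts depend on ATF7 in beige cultures. None of the 25 tested members passed the threshold between KO-labelled and WT beige cultures (limma, 0 of 25), where 0.151% of all genes were called. At an unadjusted p under 0.05 there were 5 (10.3% of all genes), namely Col28a1, Col12a1, Col16a1, Col18a1 and Col8a1. Col28a1 had 2.45 and 2.10 FPKM in KO-labelled against 3.62 and 3.23 FPKM in WT libraries (-0.43, SE 0.11, adjusted p = 0.255). Col12a1 had 12.3 and 9.61 FPKM in KO-labelled against 17.2 and 14.6 FPKM in WT libraries (-0.50, SE 0.16, adjusted p = 0.360). The groups did not overlap for either gene. Over the 25 tested members the groups did not overlap for 7 that were lower (14.1% of all genes) and 2 that were higher (27.1% of all genes). KO-labelled libraries spanned the WT values for Col1a1, Col1a2, Col3a1, Col5a1 and Col5a2, whose SEs were 0.14 to 0.24.

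In white cultures 1 of 25 members was called, higher in the KO-labelled libraries, where 1.27% of all genes were called higher and 0.62% lower. Col14a1 had 48.4 and 49.0 FPKM in KO-labelled against 26.6 and 31.0 FPKM in WT libraries (0.74, SE 0.10, adjusted p = 0.0153). The mean was 48.7 ± 0.448 FPKM in KO-labelled and 28.8 ± 3.17 FPKM in WT libraries (SD, n = 2 each). Without replicate 1 or without replicate 2 of the KO-labelled white libraries, no member was called, and over all settings the adjusted p of Col14a1 lay between 0.00292 and 0.154. There were 9 members at an unadjusted p under 0.05 (19.9% of all genes), or 7 without Col6a5 and Col6a6. Among them Col24a1 had 1.89 and 1.88 FPKM in KO-labelled against 1.18 and 1.14 FPKM in WT libraries (0.42, SE 0.10, adjusted p = 0.0846). Col8a1 had 5.01 and 5.30 FPKM in KO-labelled against 8.62 and 6.83 FPKM in WT libraries (-0.50, SE 0.13, adjusted p = 0.0925). The groups do not overlap for either gene.

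Type VI genes were each higher in both KO-labelled white libraries than in both WT ones, and none was called. Col6a1 had 278 and 290 FPKM in KO-labelled against 268 and 260 FPKM in WT libraries (0.11, SE 0.12). Col6a3 had 134 and 139 FPKM in KO-labelled against 119 and 122 FPKM in WT libraries (0.18, SE 0.09, adjusted p = 0.329). Col6a5 had 1.13 and 1.17 FPKM in KO-labelled against 0.502 and 0.656 FPKM in WT libraries (0.45, SE 0.11, adjusted p = 0.0847). Col6a6 had 1.64 and 1.40 FPKM in KO-labelled against 0.612 and 0.982 FPKM in WT libraries (0.50, SE 0.13, adjusted p = 0.0960). Col6a5 and Col6a6 reached the level needed for testing only through the KO-labelled white libraries. That level thus fixed in advance that both would lie above the WT white libraries. Over the 25 tested members the groups did not overlap for 11 that were higher, Col6a5 and Col6a6 included (32.1% of all genes), and 4 that were lower (21.2% of all genes). Col1a1, Col1a2, Col3a1, Col5a1 and Col5a2 overlapped between the groups.

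In the same white cultures, where 1.27% of all genes were called higher and 0.62% lower, 4 of 8 macrophage markers were higher in KO-labelled libraries, with the sums given above. Of these 4 calls, only that of Mrc1 is followed through the settings below. Among 7 tested stromal progenitor markers 1, Pi16, was higher (0.70, SE 0.12). Cidec, 1 of 6 adipocyte markers, was lower (-0.73, SE 0.11). Their part in the value of Col14a1 was not tested. Of the collagen-handling genes, Comp, a fibril-associated protein, was higher (0.63, SE 0.12, adjusted p = 0.0418), as was the receptor Mrc1 (0.82, SE 0.15, adjusted p = 0.0349), which is also a macrophage marker. Tgm2 (-0.71, SE 0.13) and Cd36 (-0.67, SE 0.12) were lower. These 6 calls, from Pi16 to Cd36, were all lost without replicate 1 or 2 of the KO-labelled white libraries (limma, adjusted p between 0.0615 and 0.315), without WT white replicate 2 (0.0706 to 0.172) and with no filter on low values. No gene of hydroxylation, folding, cleavage, degradation, metalloproteinase inhibition, basement membrane partners or TGF-β was called.

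The interaction of genotype and rosiglitazone tested whether the effect of the KO label differed between beige and white cultures. It was called for 0 of 25 members by limma, where 0.292% of all genes were called, and 7 had an unadjusted p under 0.05 (16.8% of all genes). Col14a1 had an interaction of -0.72 (SE 0.15, adjusted p = 0.125), and all 3 FACIT genes were among the 7, with Col12a1 at -0.64 (SE 0.23) and Col16a1 at -0.44 (SE 0.14). The others were Col24a1, Col28a1, Col6a5 and Col6a6, with -0.36 to -0.54. Without Col6a5 and Col6a6, which were tested only through the KO-labelled white libraries, 5 of 23 remained.

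In C3H10t1/2 cells with ATF7 overexpressed, 1 of the 20 members tested was called, Col27a1, which was lower, where 1.06% of all genes were called lower and 0.431% higher. Col27a1 had 10.09 and 10.03 FPKM with ATF7 overexpressed against 14.3 and 14.5 FPKM in Control libraries (-0.48, SE 0.06, adjusted p = 0.0304). Replicates lay close together and the groups far apart, but the call rested on 2 residual degrees of freedom and was lost when any of the 4 libraries was left out, with the change between -0.51 and -0.44 in all settings run. It was also lost with no filter on low values, with eBayes without a trend and with a replicate block, and its adjusted p lay between 0.0192 and 0.148 over all settings. There were 8 members at an unadjusted p under 0.05 (17.2% of all genes).

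The other tested fibrillar genes, 8 in all, had log2 fold changes below 0 and were not called, and that of Col5a3 (-0.01) turned to the other side of 0 when libraries were quantile normalized, centred on their medians or stripped of small RNA genes (at most 0.015). It also turned without replicate 1 of the overexpressing libraries (0.091) or of the Control libraries (0.051), and that of Col5a2 (-0.06) turned without Control replicate 1 (0.043). Col1a1 had 116 and 113 FPKM with ATF7 overexpressed against 141 and 127 FPKM in Control libraries (-0.22, SE 0.08, adjusted p = 0.213). Col5a1 had 26.2 and 25.5 FPKM with ATF7 overexpressed against 30.7 and 31.5 FPKM in Control libraries (-0.26, SE 0.06, adjusted p = 0.117). Groups did not overlap for either. The 3 tested type VI genes lay on the other side of 0. Col6a2 had 226 and 215 FPKM with ATF7 overexpressed against 167 and 183 FPKM in Control libraries (0.34, SE 0.07, adjusted p = 0.0996). Col6a1 had 261 and 255 FPKM with ATF7 overexpressed against 226 and 233 FPKM in Control libraries (0.17, SE 0.06, adjusted p = 0.259). Over the 20 tested members the groups did not overlap for 9 that were lower (28.8% of all genes) and 4 that were higher (20.3% of all genes). Beaded filament genes gave 44.9% and 45.0% of collagen FPKM with ATF7 overexpressed and 38.5% and 40.0% in Control libraries, and fibrillar genes 38.0% and 37.9% against 45.1% and 42.4%.

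Few collagen-handling genes were called in C3H10t1/2. Thbs2, a matricellular protein that affects fibril assembly, was lower with ATF7 overexpressed (3.45 and 2.65 against 5.742 and 7.003 FPKM in Control; -0.87, SE 0.13, adjusted p = 0.0393). Lamb3, a laminin chain, was lower as well (-0.79, SE 0.10, adjusted p = 0.0263). Both calls were lost without replicate 1 (limma, adjusted p = 0.0974 for Thbs2 and 0.151 for Lamb3) and without replicate 2 of the overexpressing libraries (0.130 and 0.112), and with no filter on low values. Thbs2 was also lost without Control replicate 2, under quantile normalization, with eBayes without a trend and with a replicate block, and Lamb3 without Control replicate 1. Of the hydroxylation, folding, cleavage, crosslinking, degradation, inhibitor, receptor and TGF-β lists, no gene was called. Adipocyte markers summed to 11335 to 12353 FPKM with ATF7 overexpressed and 11572 to 11774 FPKM in Control libraries, and 0 of 6 were called. Macrophage markers summed to at most 2.22 FPKM in the 4 libraries. The 4 Schwann cell markers summed to 4.53 to 5.22 FPKM with ATF7 overexpressed and 7.99 to 8.62 FPKM in Control libraries. Nearly all of it was S100b, the only marker tested, which was lower (-0.70, SE 0.10, adjusted p = 0.0309), while the defining Sox10 was at most 0.0347 FPKM. The call of S100b was lost in several settings, among them without either overexpressing library and without Control replicate 1. Its part in the collagen values was not tested.

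**Figure D4:**
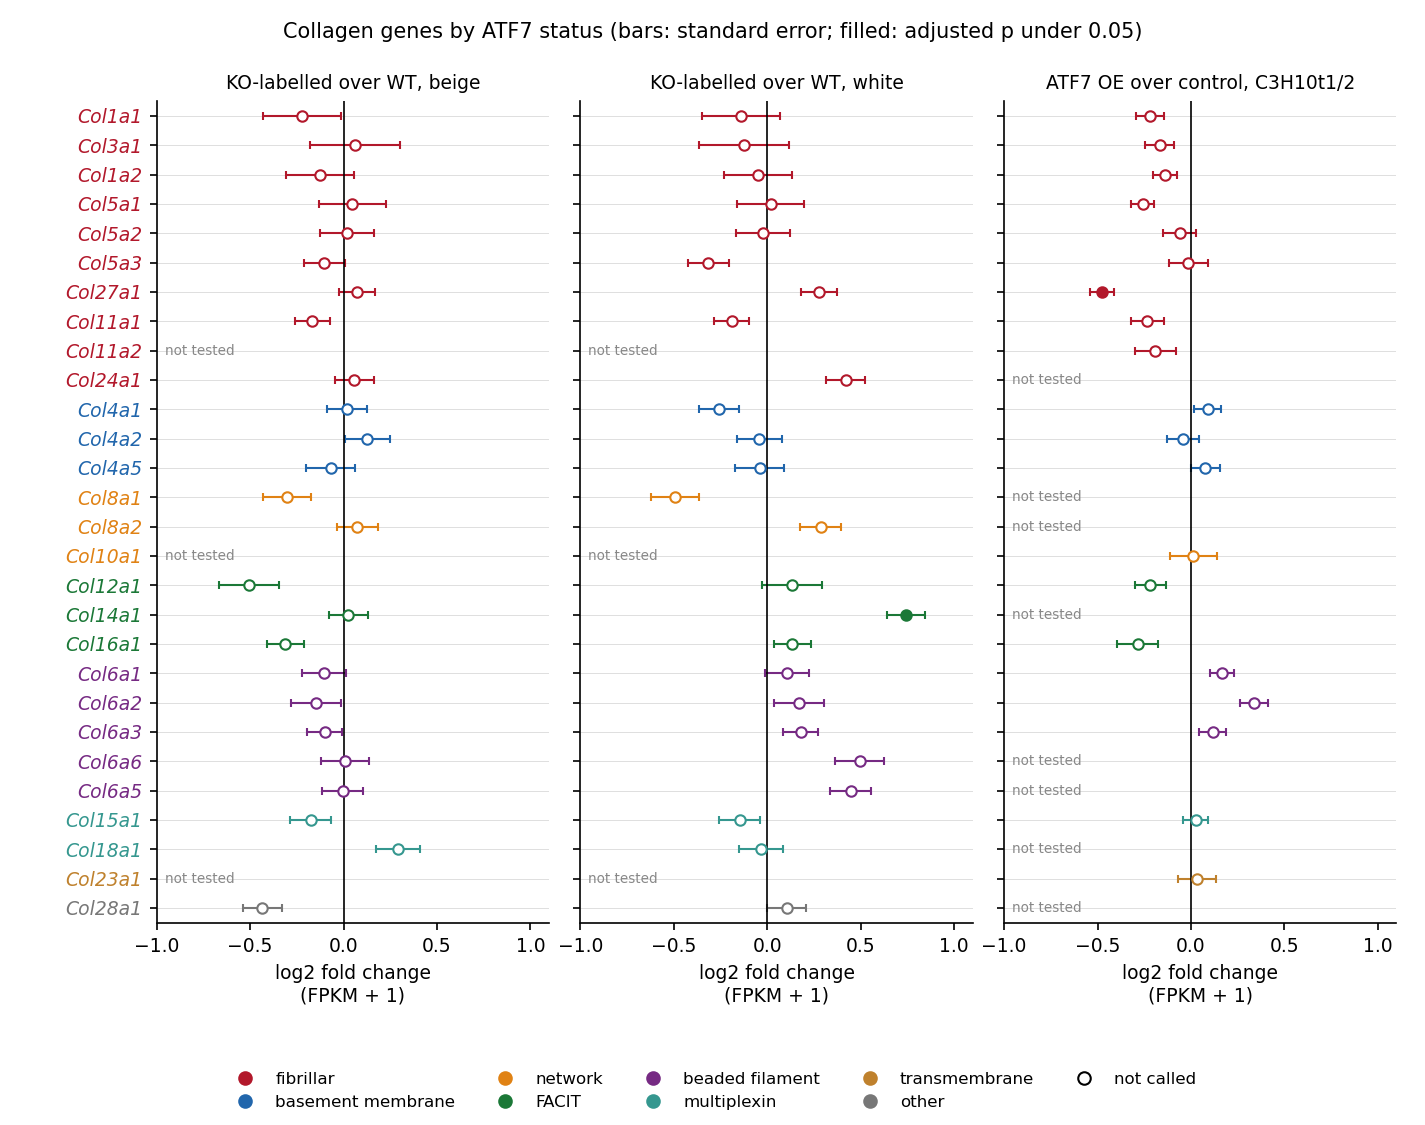
Log2 fold change of FPKM + 1 with its standard error for each collagen gene, KO-labelled over WT in beige (left) and white cultures (middle) and ATF7 overexpression over Control in C3H10t1/2 (right), with filled points for adjusted p under 0.05. The filled points are Col14a1 in white cultures (0.74) and Col27a1 in C3H10t1/2 (-0.48).

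**Figure D5:**
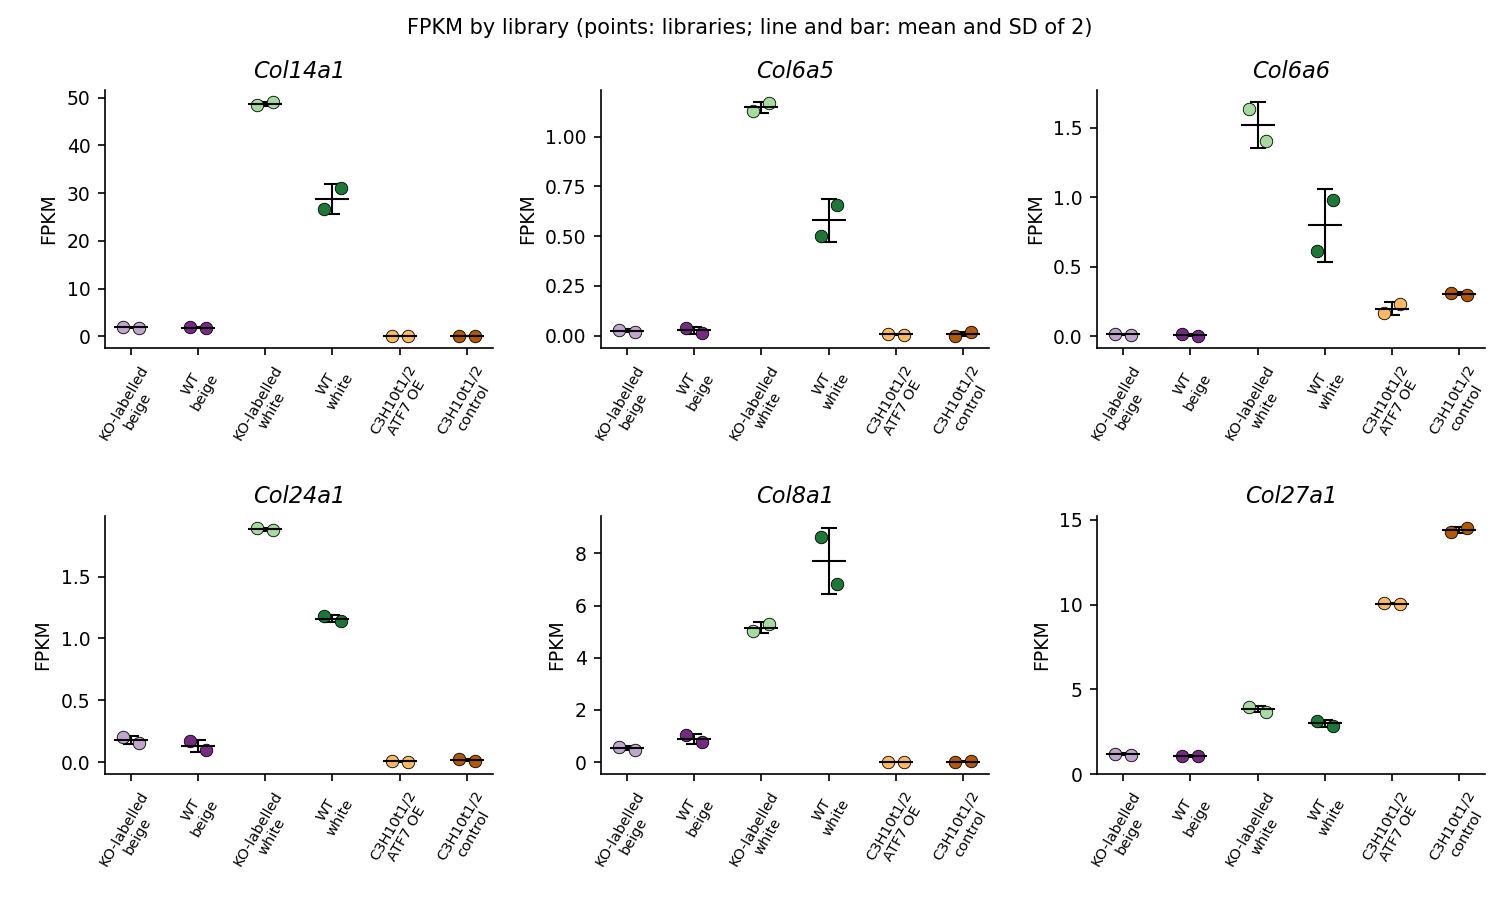
FPKM of 6 collagen genes in each library (points), with the mean and SD of the 2 libraries of a group (line and bar). Col14a1, Col6a5, Col6a6 and Col24a1 are highest in KO-labelled white, Col8a1 in WT white and Col27a1 in C3H10t1/2 Control libraries.

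Control C3H10t1/2 and WT primary beige cultures were compared for the collagen profile of the cell source. Strain, cell source and culture differ together here and cannot be told apart. Of 28 members, 11 were higher in C3H10t1/2 and 13 lower, where 31.1% of all genes were called higher and 25.3% lower. Col6a5, Col6a6, Col24a1 and Col8a2 stayed under 1 FPKM in all 4 libraries compared, and of these Col6a6 and Col8a2 were called higher. Calls of 18 of the 24 were kept in all settings run. Those of Col10a1, Col1a2, Col4a5, Col6a1, Col6a2 and Col6a6 were lost when at least 1 of the 4 libraries was left out.

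Col27a1 was higher, with 14.3 and 14.5 FPKM in C3H10t1/2 against 1.04 and 1.09 FPKM in WT primary libraries (2.90, SE 0.08). Col11a1, its fibrillar relative, had 2.66 and 2.77 FPKM in C3H10t1/2 against 0.718 and 0.721 FPKM in WT primary libraries (1.11, SE 0.08). Of the type VI genes Col6a1, Col6a2, Col6a3 and Col6a6 were called higher and Col6a5 was not called (-0.03), with Col6a3 at 118 and 108 FPKM in C3H10t1/2 against 78.6 and 73.5 FPKM in WT primary libraries (0.56, SE 0.08). Col5a3 was lower, with 3.92 and 3.49 FPKM in C3H10t1/2 against 34.0 and 35.7 FPKM in WT primary libraries (-2.93, SE 0.11). Col18a1 had 0.777 and 0.615 FPKM in C3H10t1/2 against 10.3 and 10.4 FPKM in WT primary libraries (-2.74, SE 0.11). Col14a1, Col28a1 and Col8a1 had at most 0.0855 FPKM in Control C3H10t1/2 libraries. The values of Col6a5 overlap between these groups, and those of the other genes named here do not.

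The major fibrillar genes split. Col1a1 had 141 and 127 FPKM in C3H10t1/2 against 366 and 358 FPKM in WT primary libraries (-1.43, SE 0.18), whereas Col3a1 had 221 and 204 FPKM against 210 and 236 FPKM in WT primary libraries and was not called (-0.07, SE 0.22). Col1a1 and Col1a2 encode the chains of type I collagen, usually a trimer with more α1 than α2. The ratio of Col1a1 to Col1a2 was 0.791 to 0.887 in the 4 C3H10t1/2 libraries and 1.42 to 1.65 in the 8 primary libraries.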

How the data were processed

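RNA was measured in 12 libraries in 6 groups of 2, grouped by the labels. Per the labels' protocols, libraries were strand-marking (NEBNext Ultra Directional), made after TRIZOL extraction and depletion of ribosomal RNA, and sequenced as pairs of 36 bases. The deposited values are FPKM, 1 per gene, computed by the authors on mm10 (GRCm38), as named in the submitters' processing notes. How reads were aligned, quantified, assigned to strands, annotated or filtered is not given in the sources used here. Counts were not used here, so depth is unknown.

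Libraries were joined by symbol and locus. Genes reaching 1 FPKM in 2 or more libraries of a fit were tested two-sided with limma 3.58.1 (eBayes with trend, R 4.3.3) on log2(FPKM + 1), with Benjamini-Hochberg adjusted p under 0.05. The 8 primary libraries were fitted together (11294 genes, 4 residual degrees of freedom), the 4 C3H10t1/2 libraries alone (9981 genes, 2 residual degrees of freedom) and all 12 for the comparison of cell sources (11601 genes, 6 residual degrees of freedom). The fit was tested on simulated data. Class levels, shares and chain ratios were computed from FPKM without a test.

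Any member could be named. Other genes were named if they were among the 4 lowest p of their list in a comparison or on a fixed list. The members, classes and gene lists were chosen with earlier results of these data known. Promoter windows are RefSeq, GRCm38.p6. Alternatives were a pseudocount of 0.1, no filter, quantile normalization, median centring, small RNA genes left out, other sets of libraries, eBayes without a trend, a replicate block, and each library left out in turn.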

Additional observations from a re-analysis of the deposited data

How the results depend on the processing

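No result changed from a call in one direction to a call in the other. Counts of called collagen genes in beige against white cultures stayed at 19 to 25 in KO-labelled and 22 to 26 in WT cultures, and 20 to 25 for Control C3H10t1/2 against WT primary cultures, and none was called in KO-labelled against WT beige cultures in any setting. Col11a2, not tested as reported, was the 1 member called higher in KO-labelled beige than white cultures, with no filter and with all 12 libraries in 1 fit. In white cultures the KO label gave 1 call, but 2 with no filter on low values, 5 (4 higher, 1 lower) with all 12 libraries in 1 fit, and 0 to 1 with single libraries left out. The interaction gave 1 call, Col14a1, under quantile normalization and with all 12 libraries in 1 fit, instead of 0. ATF7 overexpression gave 1 call, but 2 with small RNA genes left out (Col6a2 higher was added), 0 with no filter, 0 with eBayes without a trend and 0 with any single library left out. The causes were not tested, though fits with fewer libraries also have fewer residual degrees of freedom.

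Replicate numbers were not shown to pair libraries. Same-numbered deviations of KO-labelled and WT libraries correlated across 11601 genes at 0.111 in beige and 0.124 in white cultures, and those of overexpressing and Control libraries at 0.0554, with 2 numbers only. With a replicate block the count was 0 for ATF7 overexpression instead of 1, and 0 and 1 for the KO label in beige and white cultures.

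Scaling moved all genes: in WT beige against white the median log2 fold change was -0.10, against 0.02 with quantile normalization, 0.01 after median centring and -0.22 when small RNA genes were dropped. The calls higher in beige were 40.2%, 50.9%, 51.4% and 28.3% of all calls under these settings. In KO-labelled cultures they were 43.7%, 52.8%, 52.8% and 30.4%. For the KO label in white cultures, calls that were higher made up 67.1% of all calls, against 50.4% with quantile normalization and 52.8% with median centring, and 32.0% of 25 calls and 30.4% of 23 calls without replicate 1 or 2 of the KO-labelled white libraries. For ATF7 overexpression the share was 28.9%, against 43.4% without small RNA genes, and 11.8% of 17 and 17.2% of 29 calls without overexpressing replicate 1 or 2. Over all settings and genes, calls ranged from 5 to 27 for the KO label in beige (17 as reported), 23 to 642 in white cultures (213), 16 to 116 for the interaction (33) and 17 to 198 for ATF7 overexpression (149). Depth is unknown, so its limits cannot be given.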
